A study of Mus musculus with 4 samples.

Results

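Hearts of mouse fetuses without the miR-1 genes were set against control hearts at embryonic day 15.5 (E15.5). The comparison used 2 of the 4 libraries of the series, chosen by their labelled stage: 1 library labelled dKO, in which miR-1-1 and also miR-1-2 are knocked out, and 1 control library labelled dHET. Both were made from whole hearts of mice of the strain Sv129, with TRIzol extraction, poly-A selection and paired-end reads of 100 bases. The series also holds a dKO and a dHET library from postnatal day 2.5 (P2.5), used here only beside the fetal values. The deposited fetal table heads its control column WT, whereas the sample is labelled dHET. It is called the control here. The label dHET is not spelled out in the sources used here, and neither the alleles, the number of hearts per library nor the part of each locus that was removed is given there. With 1 library per genotype no difference below has a replicate check, and each one is a difference between 2 libraries.

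MicroRNAs are short RNAs that guide a silencing complex to messenger RNAs, mostly through pairing of their bases 2 to 8, the seed, with sites in 3' untranslated regions (3' UTRs). miR-1 is among the most abundant microRNAs of heart and skeletal muscle. It is encoded at a pair of loci, each of which also yields a miR-133. Its described targets include regulators of muscle growth, conduction and the cytoskeleton, and loss of the microRNA in mice is known to disturb heart development and rhythm. Pairing usually lowers the messenger RNA, so the site classes are given early below. The most complete class, the 8mer, is the seed match followed by an A (ACATTCCA). The others are the 7mer-m8 (ACATTCC), the 7mer-A1 (CATTCCA) and the 6mer (CATTCC).

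The mature sequences below have seeds that pair with the searched words, with the seed in capitals. The mature miR-1-3p sequence was not among the sequences used here, so the miR-1 words were set from general knowledge of its seed. They are RefSeq entries of the build GRCm38.p6. miR-206, the skeletal muscle relative of miR-1, has the same seed as miR-1-3p, and miR-133 served as the comparison.
miR-206-3p: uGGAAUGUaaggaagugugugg
miR-133b-3p: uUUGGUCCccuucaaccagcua

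The sites below are examples, from 8 genes that were higher in the dKO library and from Gja1. Gja1 lay just under 1.5-fold and is not part of the counts of higher genes. Sites of other carriers are not printed, among them the 8mers of the lower genes Fbln2 and Rgs5. Each is read 5' to 3' along the transcript from the longest 3' UTR of GENCODE release M1 on the build NCBIM37, the assembly of mm9, and the letters that match the searched word are in capitals. The first 8 are 8mers and the last 3 are 7mer-m8 sites. The Uhmk1 site lies outside the locus deposited for that gene (chromosome 1, 172129387 to 172145524).
Srsf9, chr5:115782786-115782807, + strand: cagagtctACATTCCAgattga
Kcnmb1, chr11:33873170-33873191, + strand: gttgtcagACATTCCAgatcaa
Twf1, chr15:94408595-94408616, - strand: gtcaatgcACATTCCAgaatat
Sri near the start of its 3' UTR, chr5:8067581-8067602, + strand: tatattcaACATTCCAactgga
Sri near the end, chr5:8069150-8069171, + strand: tgaaataaACATTCCAtaagca
Gja1 near the start, chr10:56108970-56108991, + strand: gctaaaaaACATTCCAgtgttt
Gja1 near the end, chr10:56110094-56110115, + strand: tttgtttgACATTCCAtgttaa
Tmem18, chr12:31276004-31276025, + strand: catcttatACATTCCAgtctat
Bex4, chrX:132674889-132674909, + strand: taattcaaACATTCCtgttag
Uhmk1, chr1:172124708-172124728, - strand: tttctcatACATTCCtcatcc
Trappc4, chr9:44211846-44211866, - strand: tgaaataaACATTCCtttgtt

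Levels are in FPKM, fragments scaled to transcript length and library size, as the authors deposited them. A change is log2((dKO FPKM + 1)/(control FPKM + 1)), and a gene was counted if it reached 5 FPKM in either library. Scaling totals recovered from the value of 1 fragment in low, single-exon genes were 86500000 fragments for the control and 104000000 for the dKO library. A 1 kb transcript at 5 FPKM then stood on 432 and 520 fragments, with Poisson errors of 4.81% and 4.39%, which cover counting error only. Both libraries had heart muscle RNA at the top: Actc1, cardiac actin, was at 4567 FPKM in the control and 4264 in dKO, and Myl2, the ventricular light chain, at 3375 and 3177. Markers of neighbouring organs were close to absent, with 8 lung, 8 thymus and 9 liver markers summing to 0.764, 0.0675 and 1.67 FPKM in the control and 0.536, 0.0649 and 1.71 in dKO. Of these, Sftpd, Scgb1a1, Cd3e and Alb, among others, were at 0 in both. The skeletal muscle list summed to more, 16.1 FPKM in the control and 9.34 in dKO, as did the cartilage and bone list, 16.7 and 18.5. No list was set up for the great arteries, and the share of attached vessel in each library was not tested. Y-linked Ddx3y (15.3 and 14.8 FPKM) and Eif2s3y (28.6 and 25.1) were present at like levels in both libraries, and Xist was at 0.0550 and 0.113.

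The deleted genes could not check the labels. Mir1a-1, Mir1a-2, Mir133a-1 and Mir133a-2 were listed at 0 in both libraries, and poly-A RNA need not hold such short hairpins. Mib1, a ubiquitin ligase gene whose locus contains Mir1a-2 and Mir133a-1, was at 14.3 FPKM in the control and 12.3 in dKO. Of 10 counted genes around the miR-1 loci, 0 passed 1.5-fold.

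Few genes differed by much. Of 8308 counted genes, 41 lay higher in dKO by 1.5-fold or more (0.494%) and 47 lay lower (0.566%), 88 in all (1.06%). Counts for gene lists below are to be read beside these shares. At 2-fold, 8 were higher (0.0963%) and 15 lower (0.181%). The median change of all counted genes was -0.012, with 53.7% of them below 0 and 46.3% above, and the 1st and 99th percentiles were -0.41 and 0.46. Elastin had the lowest change, and 7 elastic fibre genes were among the lower ones. The higher genes held Kcnmb1, Acta2, the atrial hormone gene Nppa and 20 carriers of miR-1 sites. In the authors' deposited table, 23 of the 41 and 32 of the 47 are called significant between these libraries. The background of such calls among all counted genes is 0.349% higher and 0.409% lower. Those genes were chosen by their fold between the same 2 libraries, so a share above that background was built in and is no support. The median standard error implied by the fold changes and statistics of the authors' deposited table is 0.18. That table also calls 8 counted genes under 1.5-fold, 6 higher and 2 lower. Among genes that were not counted here it calls a further 72, 13 higher and 59 lower.

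**Figure D1:**
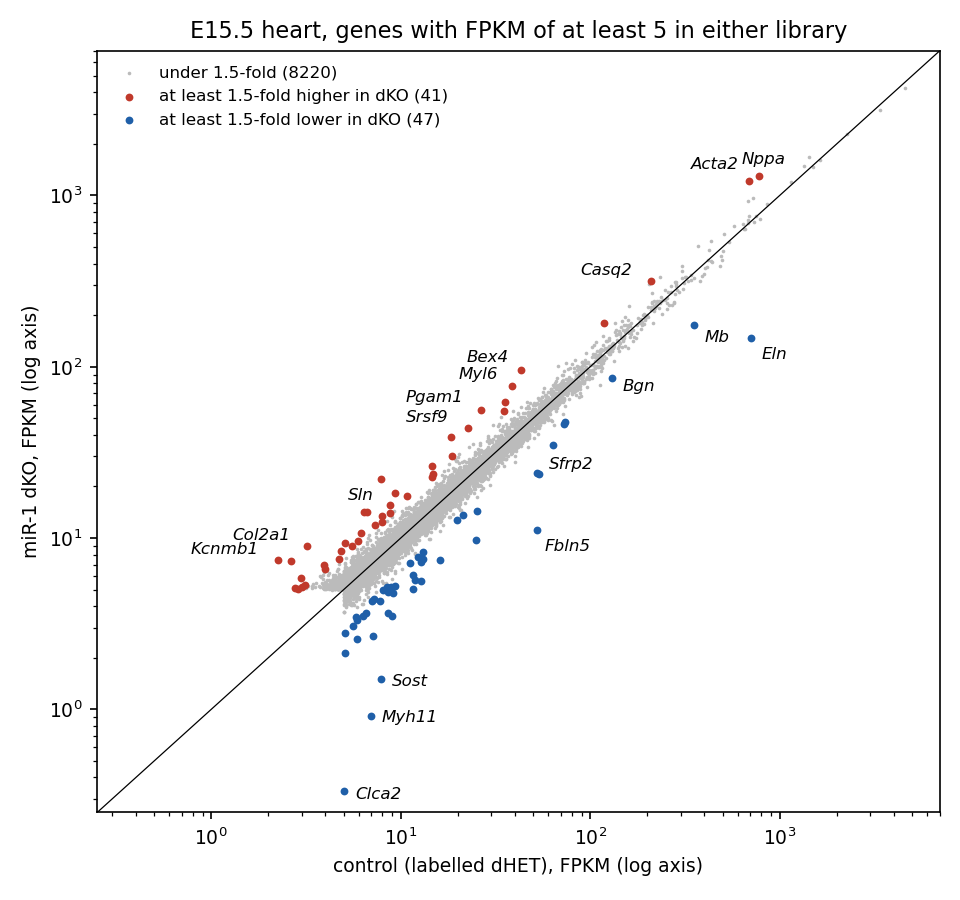
FPKM of the 8308 counted genes in the control (horizontal, log axis) and dKO (vertical, log axis) libraries; each point is 1 gene and the line marks equal levels. The 88 coloured points are past 1.5-fold, 41 above the line and 47 under it; Eln, at 710 and 147 FPKM, stands farthest below the line among abundant genes.

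Elastic fibres give arteries, valves and the connective tissue of the heart their recoil. Their core is elastin, laid on fibrillin microfibrils with the help of fibulins and joined by lysyl oxidases. Eln, which encodes elastin (chromosome 5, 135178466 to 135223124, mm9), was at 710 FPKM in the control and 147 in dKO, a change of -2.26. Fbln5, the fibulin that ties elastin to cells and microfibrils, was at 52.1 and 11.1 FPKM (-2.14). Lox, the lysyl oxidase that crosslinks elastin and collagen, was at 24.9 and 9.75 (-1.27). These genes encode the core, a scaffold and a crosslinker of the same fibre, and all were lower. In the authors' deposited table the q-value of Eln is 2.25e-11.

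The elastic fibre list has 20 genes. Like the other lists, it was picked after earlier results from these data had been seen, so its count is descriptive and no test. Among its 18 counted genes, 7 fell past 1.5-fold in dKO, beside a lower share of 0.566% in the whole counted set. In the other direction, 0 members passed 1.5-fold. The list median was -0.33, and that of all counted genes was -0.012. The other lower members were Fbln2 (52.2 FPKM in the control, 24.1 in dKO), Mfap4 (63.7 and 34.9), Mfap5 (5.09 and 2.78) and Loxl1 (21.3 and 13.6). Mfap4 and Mfap5 are microfibril-associated proteins and Loxl1 is a second lysyl oxidase. Mfap5 reached 5 FPKM only in the control and was counted only because it is high there. The fibrillins, which form the microfibrils, did not pass the threshold: Fbn1 was at 38.4 and 31.7 FPKM and Fbn2 at 51.2 and 54.2. Neither did Fbln1 (24.99 and 25.5), Efemp2 (18.9 and 22.1), Emilin1 (40.8 and 48.3) or Loxl2 (56.4 and 57.1). The latent TGF-beta binding proteins, relatives of the fibrillins, were between -0.47 (Ltbp1) and -0.17 (Ltbp3). Within the fibulins and within the lysyl oxidases, some members were lower and others near equal.

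**Figure D2:**
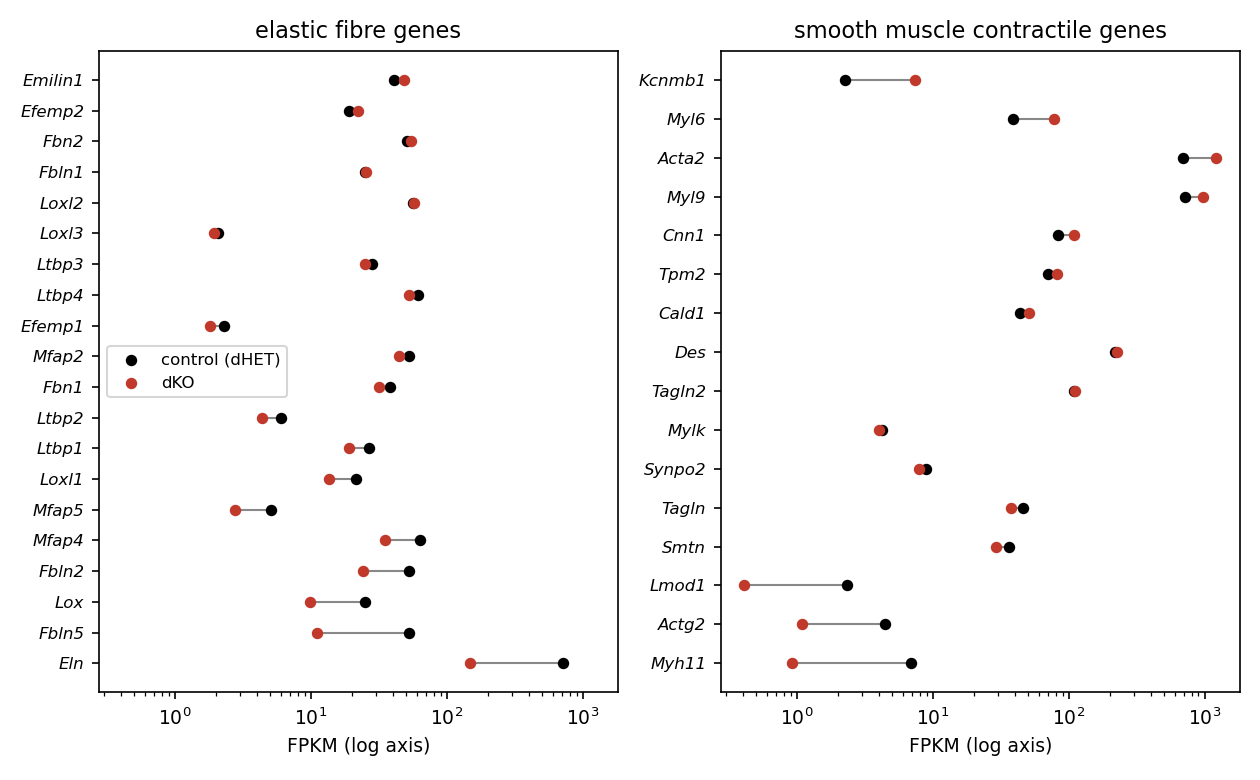
FPKM (log axis) in the control (black) and dKO (red) libraries for listed elastic fibre genes (left) and smooth muscle contractile genes (right), 1 gene per row. Elastic fibre genes at the bottom, Eln to Loxl1, lie to the left in dKO, while smooth muscle genes run both ways, from Kcnmb1 at 2.24 and 7.42 FPKM to Myh11 at 6.95 and 0.915.

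A list of 16 fibrillar and basement membrane collagens, which does not hold Col2a1, had 14 counted genes and 0 past 1.5-fold either way, with a median of 0.017. Col2a1, a fibrillar collagen placed on the valve and cartilage lists, was higher (3.20 FPKM in the control, 8.99 in dKO). Col1a1 was at 254 FPKM in the control and 234 in dKO, Col3a1 at 318 and 336, and the lowest change was that of Col6a3 (21.7 and 15.97 FPKM, -0.42). Among 18 counted proteoglycans and matricellular proteins 2 were lower and 1 was higher. Biglycan, Bgn, a small proteoglycan bound to collagen and elastic fibres, was at 131 and 85.8 FPKM (-0.60). Nov, a matricellular protein also called Ccn3, was at 8.62 and 3.66 (-1.05). Thbs4, a thrombospondin, was at 18.4 and 39.1 (1.05), whereas its relative Thbs2 was at 20.8 and 14.6 (-0.48). The list had a median of -0.12, with 15 of 18 members below 0, against 53.7% of all counted genes.

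Other lower genes are given here one by one and belong to no common list. Sost, an inhibitor of Wnt signalling best known from bone, was at 7.89 FPKM in the control and 1.495 in dKO (-1.83). Sfrp2, a secreted Wnt-binding protein, was at 53.5 and 23.8 (-1.14), while Sfrp1, of the same family, was at 38.9 and 47.0. Osr1, a transcription factor of mesenchymal progenitors, was at 7.11 and 2.67 (-1.14). The chemokine Cxcl12 was at 73.8 and 47.3 FPKM (-0.63), and the guidance ligand Slit3 at 9.09 and 4.76 (-0.81). Of 9 counted Wnt pathway genes only Sfrp2 passed 1.5-fold, while Sost was not on that list.
The cell surface proteoglycan Gpc6 was at 12.8 and 5.60 FPKM, the collagen-binding receptor Antxr1 at 16.1 and 7.40, the procollagen protease Adamts2 at 11.9 and 5.66 and the calcium-binding matrix protein Smoc2 at 13.1 and 7.56. Pdgfrl (9.04 and 3.50), the secreted protease Htra3 (5.87 and 3.33) and Islr (12.3 and 7.735) were lower as well. Clca2 was at 5.05 and 0.334 FPKM (-2.18), with a near-copy at another locus that makes its value uncertain.

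Smooth muscle genes went both ways. Myh11, the myosin heavy chain of mature smooth muscle, was at 6.95 FPKM in the control and 0.915 in dKO (-2.05). Below the counting limit, Actg2, an enteric and vascular smooth muscle actin, was at 4.47 and 1.08 FPKM, and Lmod1, a leiomodin that nucleates actin in smooth muscle, at 2.33 and 0.410. Acta2, the smooth muscle actin that fetal heart muscle also expresses, moved the other way, from 692 to 1215 FPKM (0.81). So did Kcnmb1, the beta subunit of the calcium-activated potassium channel of smooth muscle, at 2.24 and 7.42 (1.38), and Myl6, a light chain of smooth and non-muscle myosin, at 38.8 and 77.7 (0.98). The authors' deposited table does not call Acta2 significant (q-value 0.34), but calls Myh11, Kcnmb1 and Myl6. Of 13 counted members 3 were higher and 1 lower, against 0.494% and 0.566% of all counted genes, and the median was 0.21. Other members lay between: Myl9 was at 721 and 967 FPKM, Cnn1 at 82.7 and 110, Tagln at 46.3 and 37.6 and Smtn at 36.0 and 29.0. Kcnmb1 shares its locus in the table with Kcnip1, which was at 0.0721 and 0.210 FPKM. Myl6 has near-copies at other loci, and the authors' handling of reads with several matches is not given in the sources used here.

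Pericytes and vascular smooth muscle, the mural cells of vessels, gave 1 lower gene among 8 counted markers, Rgs5, a G protein regulator (25.1 and 14.5 FPKM, -0.76). Rgs4, a relative on the same list and under the counting limit, was at 3.26 and 1.41 FPKM (-0.83). Pdgfrb was at 18.6 and 16.8 FPKM, Mcam at 120 and 129 and Cspg4 at 17.7 and 18.9. Fibroblast markers also held 1 lower gene of 11, Mfap5, with Pdgfra at 15.6 and 15.5 FPKM and Dcn at 90.5 and 83.8. The summed FPKM was 251 in the control and 242 in dKO for the mural list, and 1005 and 958 for the fibroblast list. For the smooth muscle list it was 2087 and 2929, most of it Acta2 and Myl9. None of the 3 lists had a member at 0. The part of these cells in the lower elastic fibre values was not tested. In whole-heart RNA, fewer cells of a type and less RNA per cell cannot be told apart.

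Heyl, a target gene of Notch signalling in vascular smooth muscle, was at 9.33 FPKM in the control and 5.27 in dKO (-0.72). It was the only one of 17 counted Notch pathway genes past 1.5-fold. The ligand Jag1 was at 9.37 and 6.398 FPKM (-0.49) and the receptor Notch3 at 14.7 and 12.0 (-0.27), while Notch1 was at 14.1 and 14.3 and Dll4 at 7.12 and 7.58. Of 23 counted TGF-beta and BMP genes 0 passed 1.5-fold and 17 lay below 0, against 53.7% of all counted genes. The ligands Tgfb2 (18.1 and 14.5 FPKM) and Tgfb3 (10.5 and 8.45) had changes of -0.30 and -0.29. In the valve and cushion list 10 were counted. Col2a1, the collagen of cartilage and fetal valves, was higher (3.20 and 8.99 FPKM, 1.25) and Heyl lower. Acan, the aggregating proteoglycan found beside Col2a1 in cartilage and valves, was at 4.31 and 1.22 FPKM, under the counting limit. Sox9, a transcription factor upstream of both in cartilage, was at 5.76 and 5.82, near equal, so these 3 genes went 3 ways.

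Of the heart muscle lists, the atrial one held 2 of the higher genes. Nppa, which encodes atrial natriuretic peptide and marks atria and fetal ventricular trabeculae, was at 775 FPKM in the control and 1297 in dKO (0.74). Sln, sarcolipin, an inhibitor of the calcium pump in atria, was at 8.76 and 14.1 (0.63). Myl7, the atrial regulatory light chain, was at 234 and 333 (0.51), under the threshold. Of 10 counted atrial genes 2 were higher and 0 lower, against 0.494% and 0.566% of all counted genes, with a median of 0.19. Myl4, the atrial essential light chain, was at 680 and 692 FPKM and Tbx5 at 12.6 and 13.1, and Dkk3 went the other way (25.4 and 17.5). The authors' deposited table calls neither Nppa (q-value 0.070) nor Sln (0.81) significant. Of 10 counted genes on the ventricular list 0 passed 1.5-fold, and their median was -0.091, with Myl3 at 1630 and 1605 FPKM. The highest member was Pam at 0.45, and whether it is particular to ventricles was not checked here. Nppb, the second natriuretic peptide, was at 54.1 and 64.7.

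Among genes of the contractile filaments the main cardiac forms were close to equal. Myh6 was at 320 FPKM in the control and 336 in dKO, Tnnt2 at 2274 and 2279, and Tpm1 at 1423 and 1679. Of 15 counted members only Tnnt1, the slow skeletal troponin T that the fetal heart also makes, passed 1.5-fold (72.6 and 46.6 FPKM, -0.63). Tnni2, a fast skeletal troponin I, was also lower (11.6 and 5.02, -1.06), although other fast skeletal genes such as Mylpf (2.31 and 2.23) and Tnnt3 (1.08 and 1.14) were near equal. Mb, myoglobin, the oxygen-binding protein of muscle, was at 355 and 175 FPKM (-1.01). Kbtbd10, a kelch protein of striated muscle, was at 8.60 and 4.82 (-0.72). Myh7, the fetal ventricular myosin, was listed at 1335 FPKM in the control and at 0 in dKO under a flag for too much data, and it was not used. Of 18 counted Z-disc and M-band genes 0 passed 1.5-fold.

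Casq2, calsequestrin, which stores calcium in the sarcoplasmic reticulum, was at 210 FPKM in the control and 318 in dKO (0.59). Sri, sorcin, a calcium-binding regulator of the ryanodine receptor, was at 18.5 and 29.95 (0.66), and its 3' UTR holds both of the 8mers printed above. Cacna1d, a calcium channel of the sinus node and atria, was at 3.999 and 6.56 (0.60), and Slc8a2, a sodium-calcium exchanger, at 3.01 and 5.19 (0.63). Sri, Cacna1d and Slc8a2 are on no list of calcium genes here and were set beside Casq2 after their values were seen. The authors' deposited table calls Sri and Slc8a2 significant, but neither Casq2 (q-value 0.22) nor Cacna1d (0.12). Of 15 counted genes on the list for the sarcoplasmic reticulum, which holds Casq2 and Sln but not Sri, 2 were higher and 0 lower, with a median of 0.085. The central members were near equal: Ryr2, the release channel, at 33.4 and 35.5 FPKM, Atp2a2, the pump, at 432 and 413, and Pln, its inhibitor, at 490 and 444. Cacna1d overlaps Dcp1a (8.80 and 8.66 FPKM), and the strand setting of the authors' counting is not given in the sources used here. Pirt, a membrane regulator of sensory ion channels, was at 5.97 and 9.65 FPKM and its 3' UTR holds 5 sites.

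Described targets of miR-1 were mostly near equal. Of 43 counted genes on that list 2 were higher and 0 lower, against 0.494% and 0.566% of all counted genes. The median was 0.017, and 25 members lay above 0, against 46.3% of all counted genes. Srsf9, a splicing factor of the SR family, was at 22.8 FPKM in the control and 43.8 in dKO (0.92). Twf1, twinfilin, which binds actin monomers, was at 14.7 and 22.7 (0.59). Gja1, connexin 43, the main gap junction protein of ventricular muscle, was at 203 and 304 (0.58), just under 1.5-fold. The next members were Tmsb4x, an actin-binding peptide, at 683 and 923 FPKM (0.43), Myocd, a cofactor of smooth and heart muscle genes, at 30.8 and 38.1 (0.30) and Ccnd1, cyclin D1, at 26.4 and 32.7 (0.30). Hand2, a cardiac transcription factor described as a target, was at 28.8 and 28.3, Irx5 at 6.75 and 7.21 and Hdac4 at 3.89 and 3.76. Esrrb was at 3.09 and 3.62. Of 12 counted SR protein genes, Srsf9 was the only one past 1.5-fold, and the other 11 lay between -0.15 and 0.14.

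Genes with miR-1 sites made up more of the higher genes than of the lower ones. Of 40 higher genes with an annotated 3' UTR, 20 held a 7mer or 8mer (50%). The counts were 7 of 46 for lower genes (15.2%) and 1524 of 8175 for counted genes (18.6%). Some higher genes, with and without sites, reached 5 FPKM only in the dKO library and were counted only because they are high there. Among the carriers these were Kcnmb1, A530016L24Rik, Ebpl, Slc8a2 and Enpp5. In the same way some lower genes, among them Myh11, Clca2, Sost, Osr1 and Mfap5, reached 5 FPKM only in the control. The share among lower genes was 30% with a pseudocount of 5 and 26.1% with a filter at 10 FPKM, where that among higher genes was 47.1% and 48%. For the 8mer the counts were 8 of 40 (20%), 2 of 46 (4.35%) and 343 of 8175 (4.2%). The higher genes had shorter 3' UTRs than all counted genes, with medians of 603 and 1217 bases, and 0.540 sites per kilobase of 3' UTR against 0.142. The lower genes had 0.169. For the miR-133 word GGACCAA, 6 of 40 higher genes (15%), 4 of 46 lower genes (8.7%) and 704 of 8175 counted genes (8.61%) were carriers.

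Among the 20 carriers, Bex4, a brain-expressed X-linked gene, was at 43.2 FPKM in the control and 95.1 in dKO (1.12), the highest level among them in dKO. Pgam1, phosphoglycerate mutase of glycolysis, was at 26.5 and 56.0 (1.05), Uhmk1, a kinase of splicing factors, at 6.43 and 14.3 (1.04), and Trappc4, a vesicle tethering subunit, at 9.31 and 18.3 (0.90). The guanine nucleotide exchange factor Kalrn was at 8.74 and 15.5 (0.76) and the sorting nexin Snx25 at 5.08 and 9.36 (0.77). Spon1, a secreted spondin, was at 35.1 and 55.3 (0.64), and Tmem18, a nuclear membrane protein, at 5.55 and 9.02 (0.61). Pgam1, Spon1 and Mtx1 carry a 7mer-A1 as their best site and the others a 7mer-m8 or 8mer. Other carriers were Kcnmb1, Srsf9, Sri, Slc8a2, Pirt and Twf1, given above, and Enpp5, Mtx1, Blcap, Ebpl and A530016L24Rik, with changes from 0.64 to 1.19. Bex4, Pgam1, Blcap and Twf1 each have a near-copy at another place in the genome, which makes their values uncertain, and Blcap overlaps Nnat (9.72 and 9.77 FPKM). The carriers among the lower genes were Fbln2, Gpc6, Antxr1, Adamts2, Mfap4, Rgs5 and Heyl.

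Across all counted genes with an annotated 3' UTR the median change was ordered by class of site, in small steps. The annotation can lack part of a 3' UTR, so no site means none in the annotated stretch. The median was 0.045 for 343 genes with an 8mer, 0.0078 for 563 with a 7mer-m8, -0.0053 for 618 with a 7mer-A1, -0.0090 for 1127 with a 6mer and -0.019 for 5524 with no site. Of the 8mer genes 59.8% lay above 0, against 44.7% of genes with no site. The share at least 1.5-fold higher was 2.33% for the 8mer, 1.6% for the 7mer-m8, 0.485% for the 7mer-A1, 0.177% for the 6mer and 0.326% with no site, beside 0.489% of all 8175 genes with a 3' UTR. The share lower was 0.583% for the 8mer, 0.355% for the 7mer-m8, 0.485% for the 7mer-A1, 0.799% for the 6mer and 0.543% with no site. These shares did not follow the order of the classes at the 6mer. For the 16 genes with 2 or more 8mers the median was 0.081, and Sri and Pirt were the 2 at least 1.5-fold higher.

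Length of the 3' UTR moved with the class of site, since a long 3' UTR holds more words. Within the shortest of 3 equal groups by 3' UTR length (12 to 735 bases) 36 genes with an 8mer had a median of 0.15, against -0.0014 for 2592 genes with no 7mer or 8mer. Within the middle group (736 to 1844 bases) the medians were 0.069 and -0.018, and within the longest (1845 to 13255 bases) 0.031 and -0.033. The 8mer genes had the higher median in each of the 3 groups. Genes with and without the miR-133 word had medians of -0.0035 and -0.013.

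**Figure D3:**
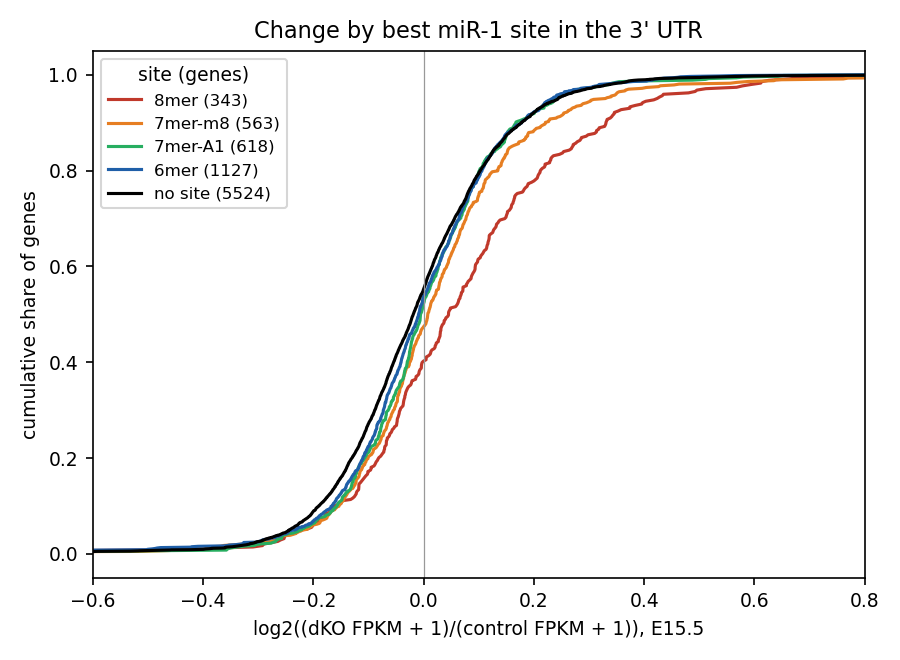
Cumulative share of counted genes (vertical) by their change (horizontal, log2 scale), 1 line per best miR-1 site in the 3' UTR. The line of 343 genes with an 8mer runs to the right of the line of 5524 genes with no site, with medians of 0.045 and -0.019.

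Most cyclin, replication and mitosis genes lay slightly below 0, where 53.7% of all counted genes lay. Of 28 counted genes of the G2 and M phases 27 lay below 0, with a median of -0.18 and 0 past 1.5-fold. Ube2c, a ubiquitin-conjugating enzyme of mitotic exit, was at 89.5 FPKM in the control and 67.8 in dKO (-0.40), Hmmr at 20.4 and 15.6 (-0.37), Cenpf at 13.4 and 10.4 (-0.33) and Mki67, the Ki-67 antigen, at 46.6 and 39.9 (-0.22). Only the kinesin Kif11 lay above 0 (20.9 and 22.6). Of 23 counted genes of the G1 and S phases 19 lay below 0, with a median of -0.10. The helicase subunits Mcm2 to Mcm7 were between -0.24 and -0.10, whereas Ccnd1 was at 0.30. Of 13 counted cell cycle inhibitors and p53 response genes 8 lay below 0 (median -0.065), near the share of all counted genes.

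Most endothelial and respiratory chain genes lay slightly above 0, against 46.3% of all counted genes. Of 20 counted endothelial and endocardial genes 15 lay above 0 (median 0.092) and 0 passed 1.5-fold. Cldn5, a tight junction protein, was at 12.8 FPKM in the control and 17.3 in dKO (0.40), while Pecam1 was at 49.0 and 48.5 and Cdh5 at 72.9 and 75.1. Of 35 counted genes of respiratory complex I 27 lay above 0 (median 0.075), and of 37 for complexes II to V 26 did (0.073). Ndufa1 was at 39.2 and 55.2 FPKM and Atp5k at 57.1 and 74.95. Cholesterol synthesis lay lower, with 13 of 14 counted genes below 0 (median -0.10). Changes of all counted genes also moved with transcript GC content, with a median of -0.051 for the genes of lowest GC and 0.040 for those of highest GC, in 4 equal groups. With a linear correction for GC content and length the median was 0.038 for complex I, -0.19 for the G2 and M phases and 0.078 for the endothelial list.

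**Figure D4:**
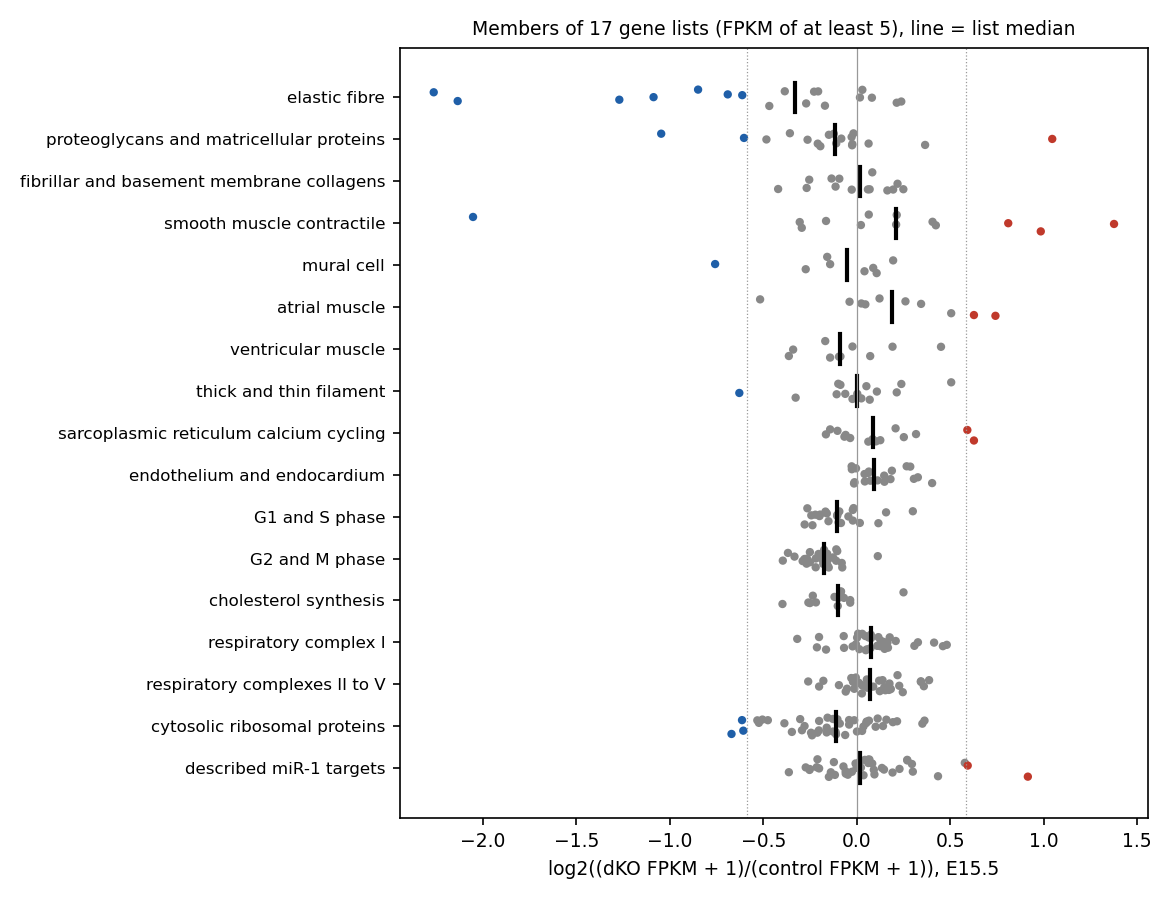
Change (log2 scale) of counted members of 17 gene lists, 1 point per gene, with the list median as a bar and 1.5-fold marked by dotted lines. The elastic fibre list reaches from -2.26 to 0.24, while the 28 genes of the G2 and M phases lie close together around -0.18.

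The remaining lists held few differences. Cardiac transcription factors had 0 of 18 counted genes past 1.5-fold, with Nkx2-5 at 67.0 FPKM in the control and 70.1 in dKO and Gata4 at 63.8 and 61.2. In the conduction list Smoc2, also a matrix protein, was the 1 lower gene of 8, and Hcn4, the pacemaker channel, was at 4.32 and 5.65. Epicardial markers held 1 lower gene of 7, the keratin Krt19 (8.42 and 5.18 FPKM), with Wt1 at 6.49 and 5.31 and Tcf21 with a change of 0.27. In the neural list Ddc, the decarboxylase of dopamine and serotonin synthesis, was lower (12.8 and 7.21), while Th, which precedes it in that pathway, was at 0.0527 and 0.0164 FPKM. Of 22 counted glycolysis genes Pgam1 was the only one past 1.5-fold, and Pgam2, the muscle form of the same enzyme, was at 163 in both. Fatty acid oxidation, the tricarboxylic acid cycle, unfolded protein response, heat shock, immediate early, hypoxia, insulin-like growth factor, imprinted, interferon and muscle splicing lists had 0 genes past 1.5-fold.

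Ribosomal protein and globin genes have many near-copies. Of 45 counted ribosomal protein genes 3 were lower, Rpl3 (8.85 FPKM in the control, 5.19 in dKO), Rps6 (13.2 and 8.25) and Rpl10 (5.78 and 3.45), and all 3 have such copies. So does Rpl23a (11.3 and 7.13), which was lower as well and stands outside the list. Hbb-b2, an adult beta globin gene, was higher (35.5 and 62.6 FPKM, 0.80), while its neighbour and near-copy Hbb-b1 was at 1.84 and 1.08 and Hba-a1 at 267 and 297. Tpt1, the translationally controlled tumour protein gene, which also has near-copies, was at 7.85 and 21.99 (1.38). Copies were found for 9 of 40 higher and 8 of 47 lower genes, against 10.7% of counted genes.

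The other higher genes without a 7mer or 8mer included Sdsl, a serine dehydratase relative (6.66 FPKM in the control, 14.2 in dKO), Gipr, the receptor of the gut hormone GIP (14.6 and 26.5), Lims2, an adaptor at integrin adhesions (2.96 and 5.83), and Malat1, a nuclear noncoding RNA (119 and 181). Plscr2, Rassf5, Tmem160, Cd63, Hist1h2bc, Acot11 and 2810405K02Rik (RefSeq symbol Prxl2b) were also higher, with changes from 0.59 to 0.70. Cd63 and Hist1h2bc have near-copies at other loci, which makes their values uncertain. The other lower genes were Gxylt2, Serpinb6b, Bend6, Tmem71, Galntl1, Ppp1r1b, Cd24a, Upp1, Ccl27a, Septin5, 2610305D13Rik (Zfp979) and Gm13157 (Zfp984), with changes from -0.95 to -0.59. Near-copies make the values of Cd24a, Ccl27a and Gm13157 uncertain as well, and Ccl27a also overlaps Il11ra1. Just inside the threshold were Acot11 (0.586) and Rpl23a (-0.592), and just outside were 3632451O06Rik (0.583) and Acpl2 (0.580). Among 3401 genes with a higher FPKM of 1 to 5, 16 were higher and 38 lower. The lower ones were led by Actg2, the reductase Cbr2 (2.13 and 0.217 FPKM), Acan, Lmod1 and F2rl1 (1.72 and 0.241), and the higher ones included Akr1e1 (0.783 and 2.54) and Arhgef4 (1.88 and 4.52).

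The P2.5 pair shares no library with the fetal pair, so the same genes could be read there, 1 library per genotype. That pair differs in more than genotype and stage: it was read from single ends, and Xist was at 0.101 FPKM in its control and 50.7 in its dKO library. Of 36 genes higher in the fetal dKO and counted at both stages, 26 were at least 1.5-fold higher at P2.5 (72.2%, against 3.25% of 7650 genes counted at both). Of all 8197 genes counted at P2.5, 3.59% were that much higher and 1.15% lower. For those with a 7mer or 8mer it was 17 of 19 (89.5%), and for those without 9 of 16 (56.3%), Malat1 having no annotated 3' UTR. The exceptions among carriers were A530016L24Rik (-0.49 at P2.5) and Blcap (0.48). Of 30 genes lower in the fetal dKO, 8 were lower at P2.5 (26.7%, against 0.797%).

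The elastic fibre values at P2.5 were mixed. Of the 7 genes lower at E15.5, 2 were at least 1.5-fold lower at P2.5, Mfap5 (-1.10) and Mfap4 (-0.60). Eln was at 94.2 FPKM in the P2.5 control and 112 in dKO (0.25), Fbln5 at 5.15 and 4.22 and Myh11 at 4.30 and 6.41 (0.48). Nppa, higher in dKO at E15.5, was at 182 and 1021 FPKM at P2.5, and Acta2 at 658 and 1692. The difference between stages was not tested, since each stage has 1 library per genotype.

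**Figure D5:**
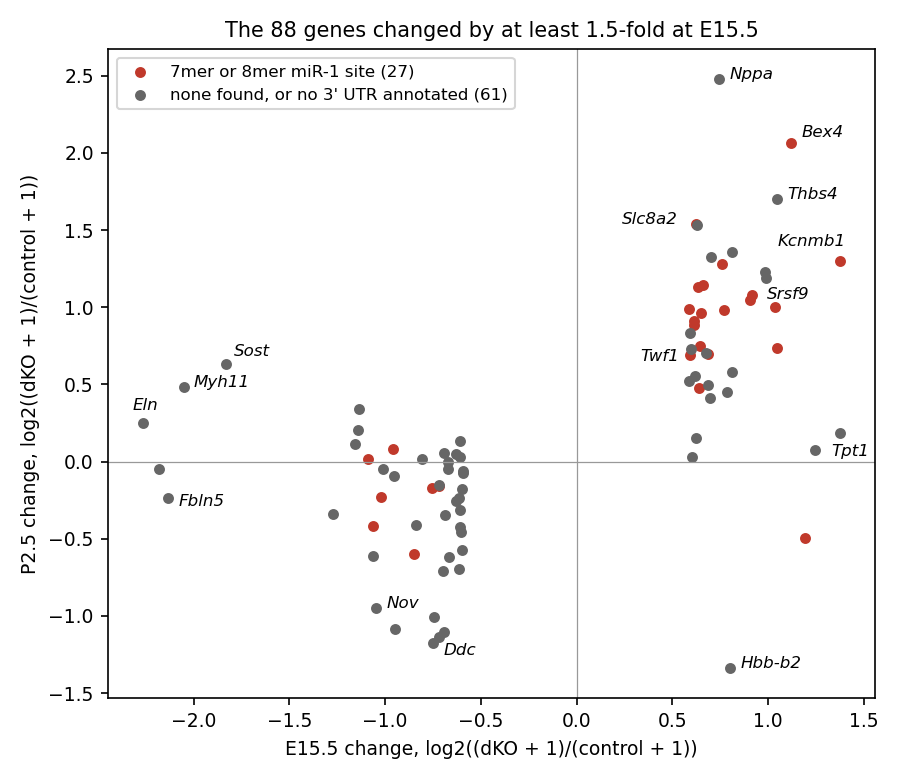
Change at P2.5 (vertical) against change at E15.5 (horizontal), both on the log2 scale, for the 88 genes past 1.5-fold at E15.5; red points carry a 7mer or 8mer miR-1 site. Most higher genes lie above 0 at P2.5 as well, while Eln, Myh11 and Sost lie below 0 at E15.5 and above 0 at P2.5.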

How the data were processed

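The authors' deposited FPKM values came as 1 table per stage with 22552 gene rows. TopHat, Bowtie, Cufflinks and the mouse build mm9 are named without versions, per the submitters' processing notes; strand, scaling and multiple-match settings: not given in the sources used here. Of the fetal rows, 86 displaced by commas in gene names were realigned, and 25 names had been turned into dates (5-Sep was read as Septin5 through its RefSeq accession). Rows flagged OK or NOTEST were used and 178 others left out. Scaling totals came from the FPKM of 1 fragment: 100% of 84 and 98.1% of 108 low single-exon values were whole numbers of fragments within 0.02.

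The change was log2((dKO FPKM + 1)/(control FPKM + 1)), with a pseudocount of 1, so changes of low genes come out too small. Genes with at least 5 FPKM in either library were counted, and called at 1.5-fold. The fold change, its p-value and q-value in the authors' deposited table are theirs, as is the test statistic, a score, that the authors deposited beside them; the sign of the fold is control over dKO and was turned. No test or p-value was computed, since each group has 1 library.

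The 51 gene lists and the members were chosen with earlier results of these data known. Named genes were every called gene (1 is not reported here), the 4 or fewer most changed members per list, the 10 most abundant genes, the 6 largest changes each way among genes at 1 to 5 FPKM and a fixed set including Nppa, Nppb, Eln, Myh11, Gja1, Twf1, Hand2 and Xist; members outside this rule, such as fibrillins, Col1a1, Ryr2 and Sox9, were added after their values were seen, to show list members near equal. Genes with provisional names (Rik, Gm) were to be counted only and are named here as exceptions. The miR-1 words were searched on the sense strand of the longest GENCODE M1 3' UTR per gene (NCBIM37), and the shorter words lie within the longer ones. Near-identical copies were sought with minimap2 2.31-r1302 at an identity of at least 90% over at least 50% of the transcript. The calculation was tested on simulated data. Alternatives changed the pseudocount, filter, scaling, status flags, 3' UTR choice and GC correction, and the removal of genes with copies was added after seeing the data. Python 3.11.15, pandas 2.3.3, numpy 2.4.6 and matplotlib 3.10.9 were used.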

Additional observations from a re-analysis of the deposited data

Results flagged for a closer look

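Genes whose change pointed in opposite directions in the fetal and the P2.5 pair, by at least 1.5-fold in each, were marked. There were 2. Hbb-b2, an adult beta globin gene, had a change of 0.80 at E15.5 (35.5 FPKM in the control, 62.6 in dKO) and of -1.34 at P2.5 (20.8 and 7.61). It shares near-identical sequence with Hbb-b1. Sost, an inhibitor of Wnt signalling, had a change of -1.83 at E15.5 (7.89 and 1.495 FPKM) and of 0.63 at P2.5, where it was at 0.510 and 1.34 FPKM and thus under the counting limit. The difference between stages was not tested for either gene.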

How the results depend on the processing

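No paired analysis was possible because each group has 1 library. Of the 88 called genes none changed sign under any setting tried, which says little. A new pseudocount, filter or status rule, the removal of copies and the authors' deposited fold change cannot turn a sign. They all start from the same 2 FPKM values. Centring and rescaling put the median of all genes at 0 and -0.019, from -0.012, too small a shift to turn any called gene. The GC correction shifts each gene by its own amount, and it turned none. The count of higher genes moved from 41 to 18 with a pseudocount of 5 and to 26 with a filter at 10 FPKM. The count of lower genes moved from 47 to 21 with a pseudocount of 5, to 24 with a filter at 10 FPKM, to 85 with a filter at 1 FPKM and to 93 with none. With a pseudocount of 5, 39 of the 88 genes stayed past 1.5-fold, and the share of lower genes with a 7mer or 8mer was 30%. The share of higher genes with such a site was lowest, at 37.5%, with no filter. After correction for GC content and length 80 of 87 stayed. The median of all genes moved by less than 0.1 under each setting. The elastic fibre list had 5 to 7 lower genes under all settings. The smooth muscle list had 3 lower genes with a filter at 1 FPKM and 0 with one at 10. Depth limits genes near 5 FPKM most, and without replicates the spread between hearts is unknown.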
